A study of Mus musculus with 6 samples.

Results

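Sgpp2, which encodes sphingosine 1-phosphate phosphatase 2, and 9 further genes that make or remove sphingosine 1-phosphate and ceramide were examined in mouse tongue. Sgpp2 was chosen by its measured rise after 4NQO treatment in these same arrays, so its values are a description and carry no test. The other genes, Sgpp1, Sphk1, Sphk2, Sgpl1, Sptlc1, Sptlc2, Asah1, Ugcg and Smpd1, were taken for their place in the pathway, with earlier results of these data known. The 10 genes are among 18193 measured by at least 1 probe set that names no other gene. Where a gene had several such probe sets, the one with the highest mean log2 signal over the 6 arrays stood for it, and the others served as a check.

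Tongues of C57BL/6J mice were profiled on Affymetrix mouse arrays, 1 array per sample. 3 samples came from mice that drank 4-nitroquinoline 1-oxide (4NQO), a quinoline carcinogen used to produce oral tumours in rodents, at 100 μg/ml for 8 weeks, and 3 came from mice without treatment. The labels name no altered allele in either group. Total RNA came from the dissected tongue, so that a lower signal from fewer cells of a type and one from less RNA per cell cannot be told apart. Group means are given as log2 signal ± SD with n = 3, and differences as 4NQO minus control on the log2 scale. The number of arrays limits the precision, and with 3 arrays against 3 the smallest two-sided p from permutations is 0.1. The labels do not state more about the animals, and p-values measure only the spread between these samples.

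Sphingolipids are built on a long-chain base. Serine palmitoyltransferase makes the first intermediate from serine and palmitoyl-CoA, and ceramide synthases and desaturases turn it into ceramide, the centre from which sphingomyelin and glucosylceramide are made and to which they are returned. Ceramidases release sphingosine, which sphingosine kinases phosphorylate to sphingosine 1-phosphate (S1P), a lipid signal that acts through its own receptors and is exported by dedicated transporters. S1P is removed either by phosphatases, which give sphingosine back for a new round of ceramide synthesis, or by S1P lyase, which ends the pathway. In stratified epithelia ceramides also form part of the water barrier.

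The S1P phosphatases Sgpp2 and Sgpp1 are paralogs, and the start regions of both genes are shown side by side. Both sequences are from RefSeq on GRCm38.p6 and run from 250 bases before to 50 bases after an annotated start of transcription, at chr1:78310096-78310395 on the plus strand for Sgpp2 and at chr12:75735680-75735979 on the minus strand for Sgpp1. Capitals mark E-boxes (CANNTG).

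Sgpp2: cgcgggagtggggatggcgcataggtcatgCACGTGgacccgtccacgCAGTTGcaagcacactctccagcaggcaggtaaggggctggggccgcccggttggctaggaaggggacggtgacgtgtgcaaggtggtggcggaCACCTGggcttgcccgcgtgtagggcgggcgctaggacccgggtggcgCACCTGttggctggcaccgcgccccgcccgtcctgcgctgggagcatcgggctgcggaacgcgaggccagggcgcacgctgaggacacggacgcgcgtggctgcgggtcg

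Sgpp1: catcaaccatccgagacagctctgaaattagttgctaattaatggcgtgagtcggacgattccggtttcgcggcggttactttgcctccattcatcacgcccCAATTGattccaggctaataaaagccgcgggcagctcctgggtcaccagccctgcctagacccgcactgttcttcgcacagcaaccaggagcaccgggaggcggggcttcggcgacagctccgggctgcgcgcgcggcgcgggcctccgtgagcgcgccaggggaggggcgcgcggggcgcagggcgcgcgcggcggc

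The Sgpp2 window held 4 E-boxes and the Sgpp1 window 1. Among 32851 windows of the same length, 72.3% held an E-box and 6.49% held 4 or more. The GC box (GGGCGG) occurred 3 times in the Sgpp2 window and was not found in that of Sgpp1, while 35.7% of all windows held it. The core of the antioxidant response element (TGACNNNGC), the DNA element read by Nrf2, was found in neither window, and 12.4% of all windows held it. Both strands were searched, and sites of different motifs did not overlap in the Sgpp2 window. Windows were available for 9 of the 10 genes, all but Asah1, and among the others the antioxidant response element core occurred in that of Ugcg and in 2 of the 5 windows of Sphk1. These matches describe letters in short windows and say nothing of binding.

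Sgpp2 had a log2 signal of 6.96, 6.05 and 6.33 in control samples 1, 2 and 3, and of 8.70, 8.67 and 8.28 in 4NQO samples 1, 2 and 3. Every 4NQO sample lay above every control sample, and the highest control was control 1. The mean went from 6.45 ± 0.47 to 8.55 ± 0.23, a difference of 2.11 or 4.30-fold. By size of the rise Sgpp2 stood at rank 19 of 18193 genes. It was measured by 1 probe set, so that no other probe set could be set beside it. With control sample 1 left out the difference was 2.36, and with control sample 2 left out it was 1.91.

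**Figure D1:**
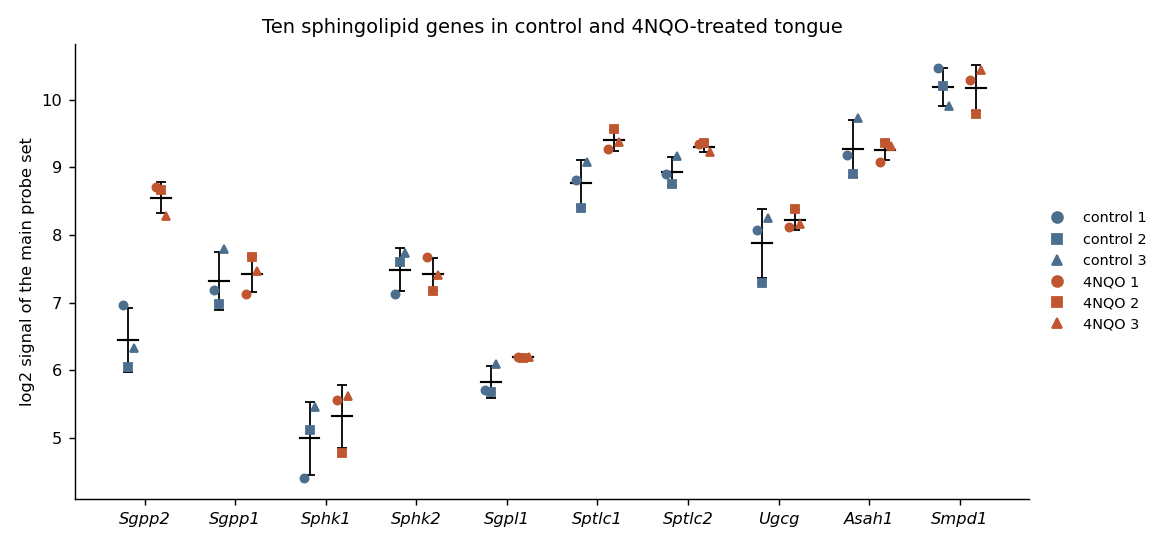
Log2 signal of the main probe set (vertical axis) of the 10 sphingolipid genes (horizontal axis) in each control (blue) and 4NQO (orange) array, with a marker shape for the replicate number, and with the group mean and SD (n = 3) as bars. For Sgpp2 the 4NQO arrays lie between 8.28 and 8.70 and the control arrays between 6.05 and 6.96, while signals of different genes are not on a common scale.

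Of the 9 genes other than Sgpp2, 0 passed limma's test at an adjusted p of 0.05 (Benjamini-Hochberg over all genes), where 0.132% of all genes passed. The smallest adjusted p among them was 0.293, for Sptlc1. At an unadjusted p under 0.05, 2 of the 9 were higher after 4NQO, Sptlc1 and Sptlc2, and 0 were lower, against 6.68% higher and 3.74% lower of all genes. In 3 of the 9 (Sgpl1, Sptlc1 and Sptlc2) the groups did not overlap and the 4NQO samples were higher, and in 0 of the 9 they were lower, against 9.59% and 7.18% of all genes. The median difference of the 9 was 0.33 and that of all genes −0.01.

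**Figure D2:**
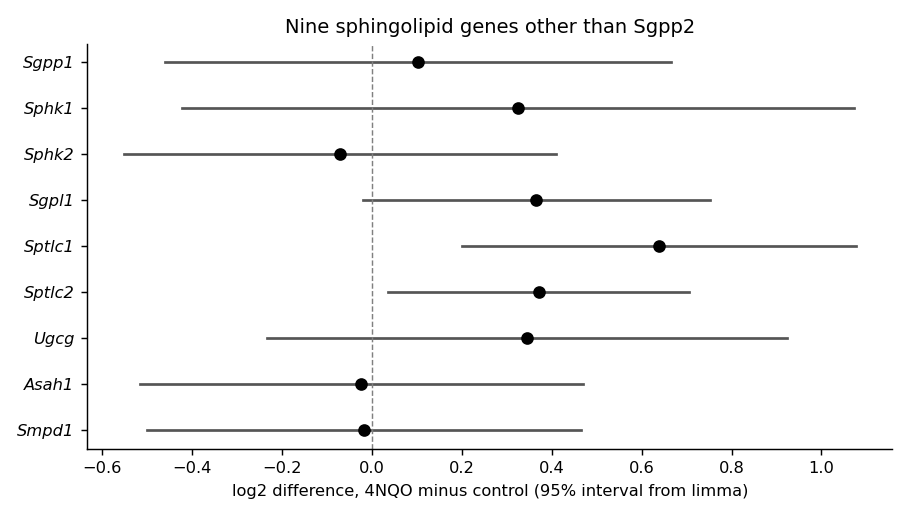
Difference in log2 signal, 4NQO minus control (horizontal axis), with its 95% interval from limma for the 9 genes other than Sgpp2 (vertical axis). The intervals of Sptlc1 and Sptlc2 lie above 0, from 0.20 to 1.08 and from 0.04 to 0.71, and those of the other 7 include 0.

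Sgpp1, the other S1P phosphatase, had a log2 signal of 7.18, 6.98 and 7.80 in the control samples and of 7.13, 7.67 and 7.47 in the 4NQO samples. The groups overlapped, and both the lowest and the highest sample were controls. The difference was 0.10 (95% interval −0.46 to 0.67, limma adjusted p = 0.907). The main probe set is of a type whose probes can also match other transcripts. Its other probe sets gave 0.07 and, at a dim signal, 0.22. Whether the changes of these paralogs differ was not tested, since Sgpp2 was chosen by its own.

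Sphk1, the sphingosine kinase that responds to growth factors, had a log2 signal of 4.40, 5.12 and 5.46 in the control samples and of 5.56, 4.78 and 5.62 in the 4NQO samples. These ranges overlapped, with 4NQO sample 2 below 2 of the controls. The difference was 0.33 with an interval from −0.42 to 1.07. It was 0.030 with control sample 1 left out, 0.59 with 4NQO sample 2 left out and 0.83 without both control sample 3 and 4NQO sample 2. Sphk2, the kinase found largely in the nucleus and at organelles, had 7.13, 7.60 and 7.73 in the control samples and 7.67, 7.17 and 7.41 in the 4NQO samples, a difference of −0.07 (−0.55 to 0.41). Its second probe set gave −0.51 and the groups overlapped on both. With control sample 3 or 4NQO sample 2 left out, the Sphk2 difference was 0.05 and had the other sign.

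Sgpl1, the S1P lyase, had a log2 signal of 5.70, 5.68 and 6.09 in the control samples and of 6.19, 6.18 and 6.19 in the 4NQO samples. The 4NQO samples lay close together and above every control, by little in the case of control sample 3. The difference was 0.37 with an interval from −0.02 to 0.75 (limma adjusted p = 0.499). A second probe set gave 0.48 with overlapping groups, its values spread more within each group (SD 0.99 and 0.96).

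Sptlc1 and Sptlc2 encode the subunits of serine palmitoyltransferase, the enzyme of the first step. Sptlc1 had a log2 signal of 8.81, 8.40 and 9.08 in the control samples and of 9.26, 9.56 and 9.37 in the 4NQO samples, and Sptlc2 had 8.90, 8.75 and 9.16 against 9.35, 9.35 and 9.22. For both genes every 4NQO sample was above every control, and the lowest sample was control 2. The difference was 0.64 ± 0.19 (SE) for Sptlc1 and 0.37 ± 0.15 (SE) for Sptlc2, with limma adjusted p of 0.293 and 0.436.

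The further probe sets of these genes did not all give the same direction. For Sptlc1, 2 of the others gave 0.93 and 0.48, both with separate groups and the latter dim. Those at 0.93 and 0.48 are of types whose probes can also match other transcripts. The remaining one gave −0.14 with overlap, at a signal that was close to dim. For Sptlc2, the others gave −0.10 and −0.46, both with overlap, so that the direction of Sptlc2 rests on the main probe set.

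Asah1 and Smpd1 release sphingosine from ceramide and ceramide from sphingomyelin, respectively. Asah1, the lysosomal acid ceramidase, had a log2 signal of 9.18, 8.91 and 9.73 in the control samples and of 9.08, 9.35 and 9.31 in the 4NQO samples, a difference of −0.02 (−0.52 to 0.47). Smpd1, the acid sphingomyelinase, had 10.46, 10.21 and 9.91 against 10.30, 9.79 and 10.44, also a difference of −0.02 (−0.50 to 0.47). In both genes the groups overlapped, and leaving out single samples moved the difference to either side of 0.

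Ugcg, the glucosylceramide synthase, had a log2 signal of 8.08, 7.29 and 8.26 in the control samples and of 8.11, 8.39 and 8.16 in the 4NQO samples. Control sample 2 was low and the other 5 samples lay within a narrow range. The difference was 0.34 (−0.23 to 0.92), and with control sample 2 left out it was 0.05. Its other probe sets gave 0.35, 0.49 with separate groups, and −0.51 at a dim signal.

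All 10 genes had a mean signal above 4.19, the dimness level taken here as the 95th percentile of the mean signals of 38 olfactory receptor genes. 68.6% of all genes lay above it. Control sample 2 had the lowest signal of the 6 arrays for 7 of the 10 genes.

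The wider sphingolipid pathway was read from 9 lists by role, which hold 85 genes, the 10 members included, of which 79 were measured. Leaving Sgpp2 aside, 0 of 78 passed the adjusted threshold, and the smallest adjusted p was 0.238, for Smpdl3b. At an unadjusted p under 0.05, 14 of 78 were higher after 4NQO and 2 were lower, against 6.68% and 3.74% of all genes. The groups stood apart with higher 4NQO samples in 12 and with lower ones in 6, against 9.59% and 7.18% of all genes. Without the members, 12 of 69 were higher and 2 lower at that threshold. The median difference of the 78 was 0.10. With control sample 2 left out 6 of the 78 were higher at that threshold, where 4.58% of all genes were, and with 4NQO sample 2 left out 8, where 5.22% were.

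**Figure D3:**
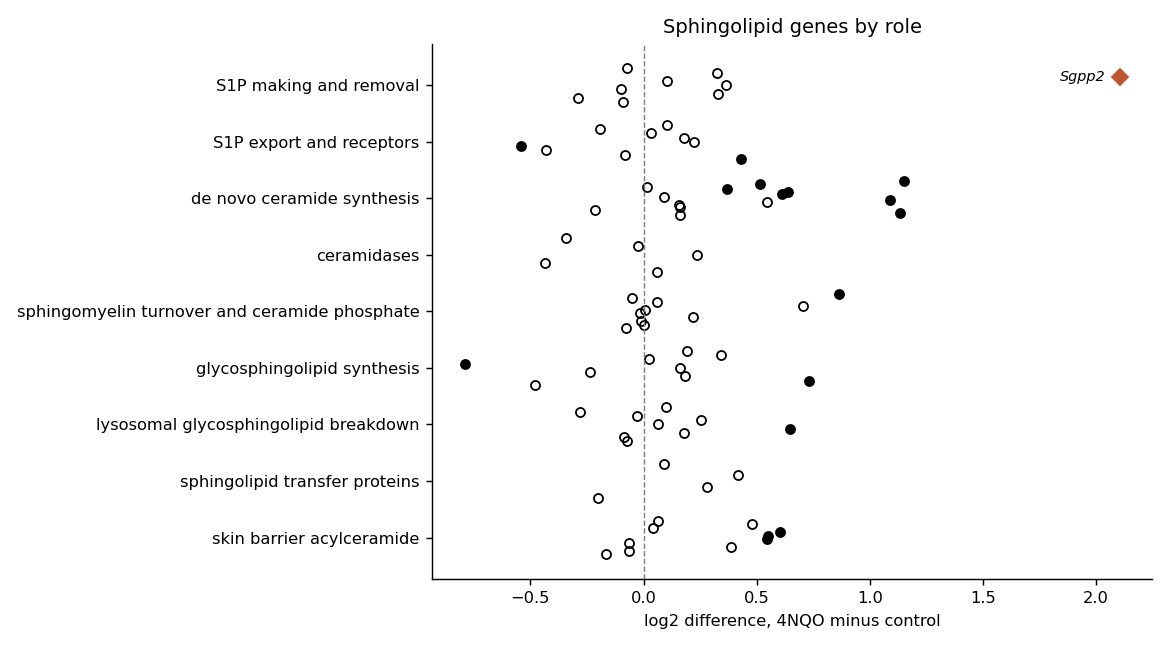
Difference in log2 signal, 4NQO minus control (horizontal axis), of the measured sphingolipid genes by role (vertical axis), 1 point per gene, filled where the unadjusted limma p was under 0.05. Sgpp2 (diamond) was chosen by its rise and lies at 2.11, and the largest difference among the others is that of Sptssb at 1.15.

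Among the other genes that make or remove S1P, the lipid phosphate phosphatase Plpp1 had a difference of −0.29 with every 4NQO sample below every control, and its second well-measured probe set gave 0.08 with overlap. Plpp2 had 0.33 and Aldh3a2, a fatty aldehyde dehydrogenase that acts after the lyase, had −0.09. Apart from Sgpp2, 0 genes of this list were past the unadjusted threshold in either direction, against 6.68% higher and 3.74% lower of all genes.

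At an unadjusted p under 0.05, 1 of 9 genes for S1P export, carriage and receptors was higher and 1 was lower. Of all genes 6.68% were higher and 3.74% lower. Abcc1, a multidrug transporter that can carry S1P and glutathione conjugates, was at 8.59, 8.80 and 8.67 in the control samples and at 9.35, 9.14 and 8.88 in the 4NQO samples, a difference of 0.43 with separate groups. Its second probe set gave 0.22 with overlap. S1pr1, the receptor prominent on endothelium and lymphocytes, was at 7.27, 7.88 and 7.97 against 7.18, 6.93 and 7.39, a difference of −0.54 with overlap. The red cell exporter Mfsd2b had −0.43, with separate groups. None of these passed after adjustment (Abcc1 limma adjusted p = 0.398, S1pr1 0.459, Mfsd2b 0.490).

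Of the 9 lists, de novo ceramide synthesis held the most genes past the unadjusted threshold. Of its 14 measured genes 13 had a positive difference and 7 were higher at an unadjusted p under 0.05, with 0 lower, where 6.68% of all genes were higher. In 4 of the 14 the groups stood apart with higher 4NQO samples, against 9.59% of all genes, and the median difference was 0.44. None passed the adjusted threshold, with a smallest adjusted p of 0.280 for Cers3.

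Cers3, the ceramide synthase of very long acyl chains in epidermis and testis, had a log2 signal of 6.08, 5.47 and 6.64 in the control samples and of 7.18, 7.64 and 6.78 in the 4NQO samples. The groups stood apart, and the difference was 1.13 (0.38 to 1.89). Sptssb, a small subunit of serine palmitoyltransferase, was at 8.87, 8.25 and 9.70 against 9.69, 10.71 and 9.88, a difference of 1.15 (0.26 to 2.05).

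In Sptssb the groups met at control sample 3 and 4NQO sample 1, and a second probe set gave 0.41. The other small subunit, Sptssa, had a difference of 0.52. Ormdl1, a brake on serine palmitoyltransferase, had 0.61, and Degs2, a desaturase and hydroxylase of the barrier epithelia, had 1.09 with overlapping groups and a control mean of 3.94, below the dimness level, so that the size of the difference is uncertain. Ormdl1 and Degs2 were named after their values were seen, to complete the 7.

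**Figure D4:**
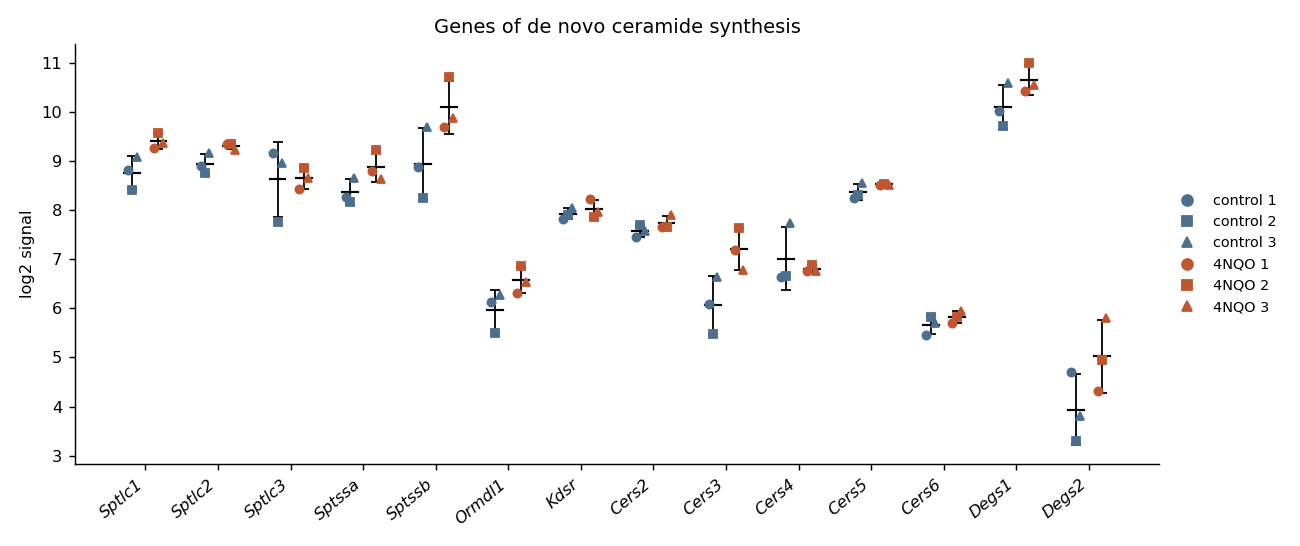
Log2 signal (vertical axis) of the 14 measured genes of de novo ceramide synthesis (horizontal axis) in each control (blue) and 4NQO (orange) array, with group mean and SD (n = 3). Control sample 2 (blue square) is the lowest array for most of these genes, and 4NQO sample 2 (orange square) is often the highest.

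The list moved between arrays of one group as well. The median deviation of its 14 genes from their control means was −0.07, −0.36 and 0.30 in control samples 1, 2 and 3. It was 0.34, 0.61 and 0.30 in 4NQO samples 1, 2 and 3. Control sample 3 thus stood level with 4NQO sample 3. With control sample 2 left out 2 of the 14 were higher at an unadjusted p under 0.05, where 4.58% of all genes were. With 4NQO sample 2 left out it was also 2 (5.22% of all genes), and with control sample 1 left out 4 (5.1%). The mean log2 signal of 11 suprabasal keratinocyte markers was 10.80 in control sample 2, against 11.38 to 11.62 in the other 5 samples. The part of the keratinocyte content in the result was not tested.

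The skin barrier list holds 10 genes that build, attach or carry acylceramide. 3 were higher at an unadjusted p under 0.05 (6.68% of all genes) and had separate groups (9.59% of all genes), namely the fatty acid elongases Elovl1 at 0.55 and Elovl4 at 0.60, and the fatty acid hydroxylase Cyp4f39 at 0.55. Elovl4 was at 9.96, 9.30 and 9.86 in the control samples and at 10.58, 10.12 and 10.23 in the 4NQO samples. The other probe sets of Elovl1 gave 0.47 with overlap, 0.51 at a dim signal and 0.52 with separate groups. That of Elovl4 gave 0.42 with overlap. The main probe set of Elovl1 and those at 0.51 and 0.52 are of a type whose probes can also match other transcripts. Limma adjusted p was 0.308 for Elovl1, 0.360 for Elovl4 and 0.428 for Cyp4f39. With control sample 2 or 4NQO sample 1 left out, 1 of the 10 was higher at that threshold, where 4.58% and 5.79% of all genes were.

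Sphingomyelin turnover had 1 gene of 10 past the unadjusted threshold, in the higher direction, where 6.68% of all genes were higher and 3.74% lower. Smpdl3b, a membrane phosphodiesterase of the acid sphingomyelinase family, was at 6.94, 6.23 and 6.96 in the control samples and at 7.76, 7.47 and 7.48 in the 4NQO samples. The groups stood apart with a difference of 0.86 (0.34 to 1.38). Smpd3, the neutral sphingomyelinase, had 0.70 (−0.21 to 1.62) and the sphingomyelin synthase Sgms2 had 0.22. Of the 5 ceramidases 0 were past it, and those with the smallest p other than Asah1 were Asah2 at −0.34 with separate groups, Acer2 at −0.44 and Acer3 at 0.23.

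Glycosphingolipid synthesis had 1 gene of 9 that was higher at that unadjusted threshold and 1 that was lower, against 6.68% and 3.74% of all genes. B4galnt1, which makes the complex gangliosides GM2 and GD2, had a difference of 0.73, and St3gal5, the GM3 synthase that feeds it, had −0.79. St3gal5 was at 7.62, 6.93 and 6.80 in the control samples and at 6.76, 5.91 and 6.31 in the 4NQO samples, with 4NQO sample 1 just below control sample 3. A second probe set of St3gal5 gave −1.20 with overlap and a dim one of B4galnt1 gave 0.04. A4galt, the Gb3 synthase, had −0.48 at a dim signal.

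Among 9 measured genes of lysosomal glycosphingolipid breakdown, Gla, the alpha-galactosidase that removes the end sugar of Gb3, was at 4.35, 4.38 and 4.30 in the control samples and at 5.24, 4.73 and 5.01 in the 4NQO samples. These groups stood apart by a difference of 0.65 (0.25 to 1.04, limma adjusted p = 0.240), on a main probe set only a little above the dimness level. The other probe sets of Gla were dim and gave −0.16 and −0.04. The sialidase Neu1 had −0.28 and the glucosylceramidase Gba2 had 0.18. None of the 4 measured transfer proteins passed the unadjusted threshold, against 6.68% higher and 3.74% lower of all genes. Gltp was at 0.42, Cptp at 0.28 and Cert1, which carries ceramide to the Golgi, at −0.20 with separate groups. The other probe sets of Cert1 above the dimness level gave 0.13 and −0.18, both with overlap.

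Genes whose signal followed that of Sgpp2 most closely were sought among 12485 other genes above the dimness level. Over 6 arrays, Pearson r was 0.996 for Rfc4, a subunit of the clamp loader of DNA replication, 0.995 for Idi1 of isoprenoid and cholesterol synthesis, 0.993 for Fabp5, the epidermal fatty acid binding protein, 0.992 for Arrb2 and 0.991 for Pbdc1. In all 5 the 4NQO samples lay above the controls, as in Sgpp2, so that the group difference makes up much of each r. 346 genes had an r above 0.9. Fabp5 was at 12.43, 12.10 and 12.13 in the control samples and at 13.12, 13.03 and 13.02 in the 4NQO samples.

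With the group means removed, the genes most like Sgpp2 were Fmn1, Haus6, Slc30a5, Muc20 and Polr2f, with r from 0.991 to 0.993. These r values rest on 6 arrays that differed in tissue makeup and are given as a description. The mean log2 signal of minor salivary gland markers, for example, ran from 3.18 to 9.04. Of the sphingolipid members, Sptlc1 had an r of 0.85 with Sgpp2 over 6 arrays and 0.35 with the group means removed. These values were 0.83 and 0.28 for Sptlc2, 0.75 and −0.15 for Sgpl1, and 0.16 and −0.04 for Sgpp1. In the wider lists the highest r over 6 arrays was 0.92, for Smpdl3b, with 0.69 once the group means were removed.

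Marker genes of tongue tissues were read for each array beside these results. The mean log2 signal of 7 basal keratinocyte markers lay between 10.65 and 11.13 in the control samples and between 10.73 and 11.18 in the 4NQO samples, and that of 10 skeletal muscle markers between 11.52 and 12.47 and between 11.47 and 12.22, so that both defining tissues of tongue were present. Suprabasal markers had 10.80 to 11.51 and 11.38 to 11.62, endothelial markers 7.90 to 8.31 and 8.08 to 8.26, and fibroblast markers 10.20 to 10.91 and 9.91 to 10.48. Leukocyte markers had 5.32 to 5.87 and 5.67 to 6.75. The ranges of the groups overlapped for each of these lists. Higher at the unadjusted threshold were 1 basal marker of 7, 2 suprabasal markers of 11 (Krt6a and Krt16) and 3 leukocyte markers of 12 (Ptprc, S100a8 and S100a9). The leukocyte marker Cd79a, at a dim signal, and 1 fibroblast marker were lower. Of all genes 6.68% were higher and 3.74% lower. The other leukocyte markers had differences from −0.07 (Ms4a1) to 0.37 (Cd68). Krt6a and Krt16 were already at 13.59 and 12.41 in the control mean. 9 of the 12 leukocyte markers and 4 of the 5 salivary gland markers were above the dimness level, as were all measured markers of the other lists.

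The markers of dividing cells did not overlap, with 6.50 to 7.34 in the control samples and 7.84 to 8.34 in the 4NQO samples. All 5 measured markers were higher at an unadjusted p under 0.05, where 6.68% of all genes were. Their part in the Sgpp2 difference was not tested. The 5 markers of minor salivary glands, which lie in parts of the tongue, were at 3.37, 8.56 and 6.61 in the control samples and at 3.18, 3.58 and 9.04 in the 4NQO samples. In each group the samples with the lower gland signal had the higher Sgpp2 signal. Between the samples of low gland signal alone (control 1 against 4NQO 1 and 2) the Sgpp2 difference was 1.72. Between those of high gland signal it was 2.09. Each split, made after the data were seen, leaves 1 array in an arm. Neither could reverse the sign, since every 4NQO sample lay above every control. With the gland signal as a covariate, also chosen after the data were seen, the Sgpp2 difference was 2.00. Of the 14 genes of de novo ceramide synthesis 3 were then higher at an unadjusted p under 0.05, where 5.88% of all genes were.

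**Figure D5:**
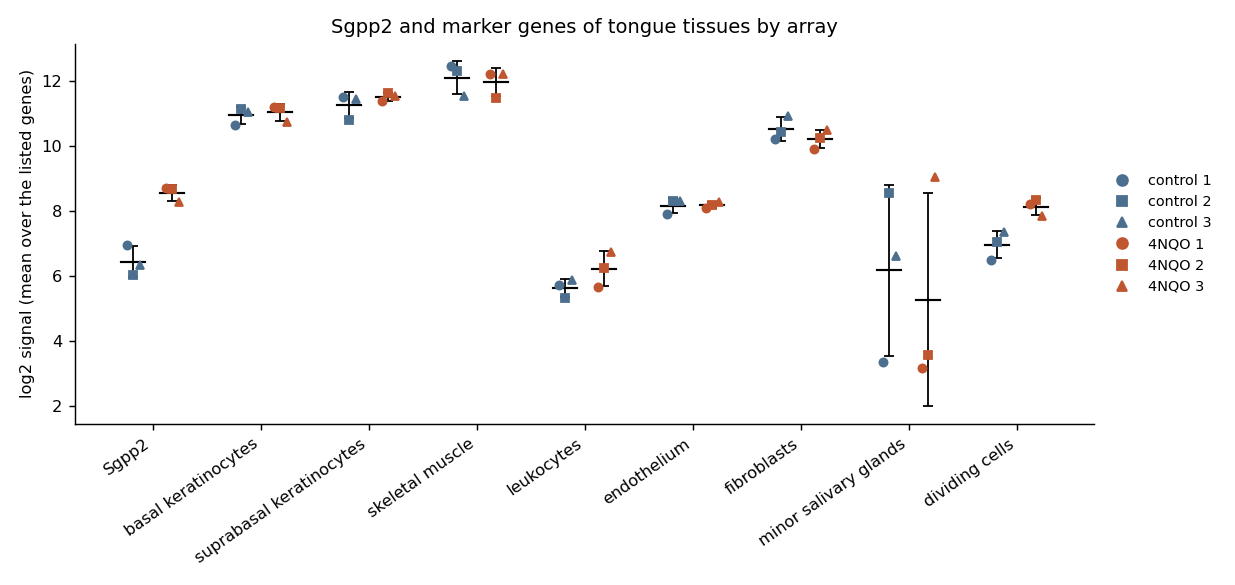
Log2 signal of Sgpp2 and mean log2 signal of marker genes of tongue tissues and of dividing cells (vertical axis, groups of genes along the horizontal axis) in each control (blue) and 4NQO (orange) array, with group mean and SD (n = 3). The groups stand apart for Sgpp2 and for dividing cells, and the minor salivary gland signal varies from 3.18 to 9.04 within groups.

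The difference between the 3′ and 5′ probe sets of Gapdh, a sign of RNA integrity, was 1.67 in control sample 3 and 1.07 in 4NQO sample 2, against 0.0858 to 0.469 in the other 4 samples. The same difference for beta-actin did not single out these arrays and was highest in 4NQO sample 1, at 1.12. It was 1.01 in control sample 3, 0.954 in 4NQO sample 2 and 0.549 to 0.830 in the remaining samples. Without control sample 3 and 4NQO sample 2 the Sgpp2 difference was 1.99. Of the 14 genes of de novo ceramide synthesis 6 were then higher at an unadjusted p under 0.05, where 6.58% of all genes were.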

How the data were processed

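Total RNA of 3 control and 3 4NQO-treated tongues was measured on Affymetrix mouse arrays. The deposited table holds 1 log2 signal for each probe set and array, which the authors had normalized in R with Bioconductor. For its arrays the study cites a deposited series other than this one. Which normalization was applied was not given in the sources used here.

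Probe sets were named through the platform annotation. 34945 of 45101 probe sets with 1 gene were kept, which gave 18193 genes, each by its probe set of highest mean. All genes were fitted with limma 3.58.1 in R 4.3.3 (lmFit, then eBayes with its trend option), and p-values were adjusted by Benjamini-Hochberg over all of them, with 0.05 as threshold. The methods' SAM was not used. The t-test called the methods' below is the Student's t-test of the study's general statistics, not its array method. The fit was tested on simulated data. Dim genes were kept.

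The members and lists were chosen with earlier results of these data known. Named genes are the members, up to 3 further genes of each list with the smallest p and the one of largest difference, and the 5 genes most like Sgpp2 by each measure. Alternatives were other normalizations, filters, probe sets and variance models, a replicate block, omission of arrays and, chosen after seeing the data, the salivary gland signal. Promoter sequences and motifs came from RefSeq windows.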

Additional observations from a re-analysis of the deposited data

How the results depend on the processing

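The 18 alternatives left 0 of the 78 pathway genes other than Sgpp2, the 9 other members among them, past the adjusted threshold. Over all genes the fit called 23 higher and 1 lower, against 0 without control sample 2, 1 without 4NQO sample 2, 10 without 4NQO sample 1, 63 and 2 with centred arrays, 1 and 1 by the methods' t-test, 4 without both arrays of large Gapdh difference, and 0 in either set of arrays split by salivary gland signal. The mean of a gene's probe sets gave 15 and 1 and the probe set of largest variance 14 and 1, and without dim genes 35 and 3 were called.

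The Sgpp2 difference lay between 1.72, in arrays of low gland signal, and 2.36 in the 15 alternatives that applied, and leaving out single arrays gave 1.91 to 2.36. Every 4NQO array lay above every control, so that omission of arrays could not reverse its direction. The probe set alternatives and the replicate block could not change it either, since the gene has 1 probe set and the groups are balanced. The 14 pathway genes higher at an unadjusted p under 0.05 became 6 by the methods' t-test, 6 in arrays of low and 3 in arrays of high gland signal, and 6 to 18 without single arrays. For the 7 genes of de novo ceramide synthesis these counts were 2, 3, 1 and 2 to 7, and 3 with the gland signal as a covariate. For the 3 barrier genes they were 1, 1, 0 and 1 to 4, and 1 with the probe set of largest variance. The sets split by gland signal have an arm of 1 array and called 0 of all genes, so that their low counts say little about stability. The cause of the other changes was not tested. Of all genes, 5.75% were higher at that threshold by the methods' t-test and 4.58% to 8.07% without single arrays. With the covariate 5.88% were, and with the probe set of largest variance 6.25%.

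Like-numbered samples had an r of deviations of 0.29, −0.51 and 0.05 for numbers 1, 2 and 3. Unlike-numbered samples had −0.52 to 0.48. With 3 arrays in a group, such r cannot show whether like-numbered samples were handled together. With the replicate block 2 genes were called in all. At the unadjusted threshold 3 of the de novo ceramide genes were higher, where 5.45% of all genes were. The Sgpp2 difference was 2.11, which the block leaves unchanged in this balanced design.

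Differences near 0 changed sign. Without single arrays, Sgpp1 ranged from −0.066 to 0.34, Sphk2 from −0.25 to 0.052, Asah1 from −0.21 to 0.20 and Smpd1 from −0.16 to 0.18. Centred arrays gave 0.0036 for Sphk2, 0.051 for Asah1 and 0.057 for Smpd1, and leaving out both arrays of large Gapdh difference gave 0.17, 0.15 and 0.033. Arrays of low gland signal gave 0.29 for Sphk2 and 0.038 for Asah1, and those of high gland signal 0.38 for Smpd1. The mean of probe sets gave −0.063 for Sptlc2 and 0.0064 for Smpd1, and the probe set of largest variance −0.46 for Sptlc2. Sgpl1, Sptlc1, Sphk1 and Ugcg had positive differences in all 18, with Sphk1 from 0.030 to 0.83. The variance models, the dim filter and the replicate block cannot change a difference. For Sgpl1 and Sptlc1, whose groups did not overlap, omission of arrays cannot reverse it. Signals near the dimness level limit what the dim probe sets can show.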
